A study of Mus musculus with 18 samples.

Results

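The genes described here encode the subunits of DNA polymerase alpha-primase (Pola1, Pola2, Prim1 and Prim2) and of DNA polymerase delta (Pold1, Pold2, Pold3 and Pold4). They are 8 of the 51912 genes counted, found by matching each Ensembl identifier to its symbol, and all 8 passed the filter on low counts that left 15710 genes for testing. On GRCm38 they lie at chrX:93304767-93632155 (Pola1, ENSMUSG00000006678), chr19:5940542-5964202 (Pola2, ENSMUSG00000024833), chr10:128015168-128030037 (Prim1, ENSMUSG00000025395), chr1:33453810-33669795 (Prim2, ENSMUSG00000026134), chr7:44532746-44548849 (Pold1, ENSMUSG00000038644), chr11:5872180-5878292 (Pold2, ENSMUSG00000020471), chr7:100082111-100121565 (Pold3, ENSMUSG00000030726) and chr19:4231899-4233634 (Pold4, ENSMUSG00000024854), with Prim1 and Pold4 on the plus strand and the others on the minus strand. Values are summed over all exons of a gene. RNA-seq was performed on primary mouse embryonic fibroblasts (MEFs), the mixed adherent cells that grow out of a minced embryo, here without head, heart and liver. The cells came from crosses of Pole4+/- Trp53+/- C57BL/6 mice and were grown in 15% serum at 5% oxygen. Each of Pole4+/+ and Pole4-/- was combined with each of Trp53+/+, Trp53+/- and Trp53-/-, giving 6 genotypes of 3 libraries, and the labels name no treatment. Cells were at an early passage. Cultures were made from individual embryos, but the sources used here do not tie a library to an embryo, so p-values measure the spread between these libraries.

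Polymerase alpha-primase starts every new DNA strand: its primase subunits make a short RNA primer, which its polymerase subunits extend with a short stretch of DNA. Polymerase delta then takes over on the lagging strand, held on the template by the sliding clamp PCNA, and completes each Okazaki fragment. Polymerase epsilon, of which Pole4 is a small accessory subunit, copies the leading strand. Trp53 encodes p53, which arrests the cell cycle after damage, in large part through the inhibitor encoded by Cdkn1a.

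The promoters of Pola1, Pold1 and Pold4 are printed first, because they belong to the polymerase subunits of both complexes and to the subunit that moved against all others. RefSeq windows (GRCm38.p6, from 250 bases before to 50 bases after a transcription start) were matched for 7 of the 8 genes, all but Prim2. Only bases upstream of both the RefSeq and the GENCODE start are printed, 5′ to 3′ on the strand of the gene, with motif matches in capitals. The stretches are chrX:93632156-93632405 (minus strand) for Pola1, chr7:44548850-44549065 (minus strand) for Pold1 and chr19:4231643-4231892 (plus strand) for Pold4.
Pola1: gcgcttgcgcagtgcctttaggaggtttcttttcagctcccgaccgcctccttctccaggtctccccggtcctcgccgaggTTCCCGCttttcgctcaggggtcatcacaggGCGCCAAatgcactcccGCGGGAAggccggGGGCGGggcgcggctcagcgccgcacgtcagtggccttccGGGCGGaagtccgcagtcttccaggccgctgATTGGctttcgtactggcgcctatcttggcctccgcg
Pold1: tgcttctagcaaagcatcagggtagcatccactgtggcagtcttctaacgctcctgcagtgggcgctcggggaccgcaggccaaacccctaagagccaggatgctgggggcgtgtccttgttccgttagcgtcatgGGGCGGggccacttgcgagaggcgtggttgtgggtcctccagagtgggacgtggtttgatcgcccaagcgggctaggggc
Pold4: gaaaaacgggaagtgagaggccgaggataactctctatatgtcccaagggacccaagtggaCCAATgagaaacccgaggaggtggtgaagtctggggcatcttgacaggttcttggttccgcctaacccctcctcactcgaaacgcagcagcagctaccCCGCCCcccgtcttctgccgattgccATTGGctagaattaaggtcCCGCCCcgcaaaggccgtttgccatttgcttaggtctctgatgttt

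The motifs were searched on both strands: an E2F-type heptamer (TTCCCGC and its variants: first TTGGCGC, then the sequence TTCGCGC, and last the sequence TTGCCGC), the CCAAT box (CCAAT), the CHR element (TTTGAA), the GC box (GGGCGG) and the p53 half-site. E2F-type heptamers stood in 4 of the 7 windows, those of Pola1, Prim1, Pold1 and Pold3, and in 9.57% of all 32851 promoter windows. Pola1 held 4 of them, 3 in the printed stretch and 1 that begins 16 bases after the start. Prim1 had 1 beginning 15 bases before the start, which shared 1 base with a CCAAT box, the only overlap between different motifs. Pold1 and Pold3 each had 1 after the start, beginning at bases 40 and 19.

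The Pold4 window held no E2F-type heptamer, but 2 CCAAT boxes and 3 GC boxes. CCAAT boxes stood in 4 of the 7 windows and in 37.4% of all windows, and GC boxes in 6 of the 7 and in 35.7% of all. No CHR element and no p53 half-site was found in the 7 windows, against 17.9% and 8.36% of all windows. A match is a run of letters and not a measured binding site, and its absence says only that these letters are not in this window.

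**Figure D1:**
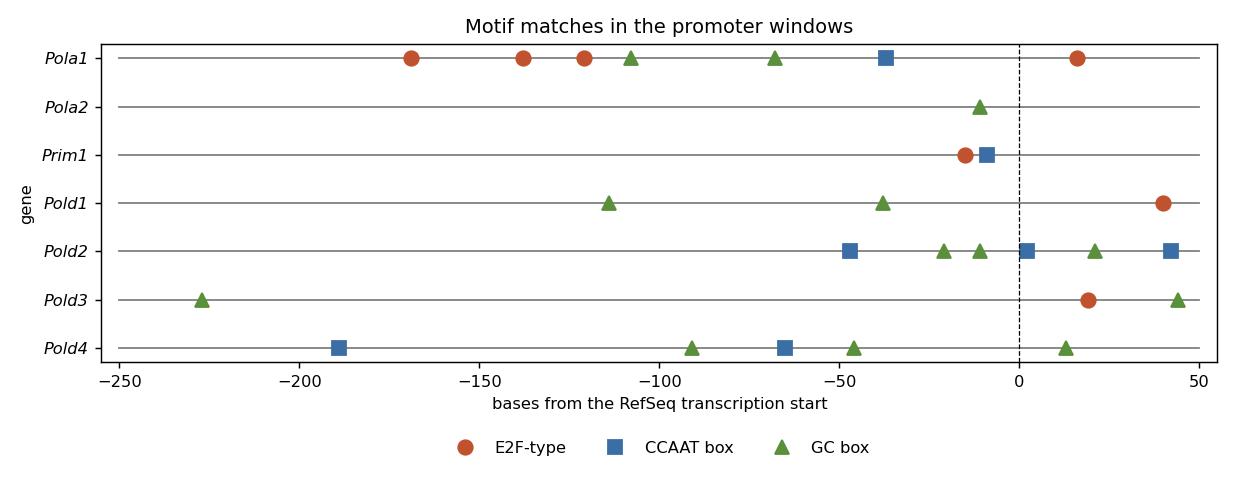
Positions of motif matches in the RefSeq promoter windows of 7 subunit genes, in bases from the transcription start (dashed line), each point marking the first base of a match on either strand. Pola1 carries 4 E2F-type heptamers, and Pold4 carries none beside its 2 CCAAT boxes and 3 GC boxes.

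Library totals ran from 9535971 to 35319918 counts, and the subunit genes had between 52 and 1560 counts in a library. Levels are given as TMM-scaled CPM, counts relative to the scaled library total. The share of ribosomal RNA was lowest at 0.968% and highest at 42.5%, in Pole4-/- Trp53+/+ replicate 3. Trp53 mRNA stood at 86.6 to 96.1 CPM in Pole4+/+ Trp53+/+ and at 64.2 to 72.7 CPM in Pole4-/- Trp53+/+ libraries. It stood at 48.4 to 59.6 CPM in the Trp53+/- libraries and at 8.65 to 12.1 CPM in the 6 Trp53-/- libraries. Cdkn1a fell from between 232 and 363 CPM in the 6 Trp53+/+ libraries to between 5.17 and 12.03 CPM in the Trp53-/- ones. Pole4 mRNA was still counted at 9.26 to 11.99 CPM in the Pole4-/- libraries, against 14.2 to 26.4 CPM in the Pole4+/+ ones, so it was lower but not lost. The fibroblast markers Col1a1 and Vim stood at no less than 3892 and 2113 CPM in any library. Of the lists for other cell types, the 5 neuronal markers summed to 66.1 to 144.5 CPM, mostly Tubb3 and Stmn2, the 6 muscle markers to 20.4 to 81.1 CPM, mostly Des, and the 8 macrophage markers to 4.84 to 51.96 CPM, with Lyz2 reaching 28.2 CPM. Epithelial markers summed to at most 20.02 CPM, mostly Krt18, and endothelial and erythroid markers to at most 6.17 and 1.86 CPM. Snap25 and Krt5 had a median of 0. Of the macrophage markers Aif1 did too, whereas Ptprc, Adgre1, Cd68, C1qa, C1qb and Csf1r had medians of 0.776 to 3.84 CPM.

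A single library, replicate 1 of Pole4+/+ Trp53-/-, stood apart. It had 1081 CPM of Xist and also 9.08 CPM of Y-linked transcripts, whereas 7 libraries had 134 to 208 CPM of these and the others at most 0.337. Sex was called here from these transcripts, male above 50 CPM and female below, which puts this library among the female ones. Its Pole4 level, 14.2 CPM, was the lowest among the Pole4+/+ libraries. Comparisons, ratios, orders and correlations of the subunits are also given without it, whereas the likeness to other genes is given with it.

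Loss of Trp53 in Pole4-/- cells changed all 8 genes past the threshold, 7 upward and Pold4 downward. The threshold was an adjusted p under 0.05 in edgeR's quasi-likelihood test, Benjamini-Hochberg adjusted over all 15710 genes, and 42.6% of all tested genes passed it in this comparison, so the count itself says little about these genes. The libraries of the groups did not overlap for any of the 8, which held for 57.0% of all tested genes. In a bulk culture, fewer dividing cells and less RNA in each cell cannot be told apart.

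Pola1, the DNA polymerase of the primase complex, had the largest log2 difference of the 8. Its levels in Pole4-/- cells were 18.4, 18.4 and 15.3 CPM with Trp53+/+, 33.0, 34.2 and 27.2 CPM with Trp53+/-, and 61.3, 50.7 and 63.9 CPM with Trp53-/-. The 3 genotypes did not overlap and rose in order. The log2 difference between Trp53-/- and Trp53+/+ was 1.75 ± 0.15 (SE, 3 libraries a group; edgeR, adjusted p = 1.7e-06). Pola2, the accessory subunit that ties the polymerase to primase, rose less, from 12.4, 10.52 and 13.4 CPM to 24.2, 24.0 and 24.2 CPM, by 1.00 ± 0.16 on the log2 scale (edgeR, adjusted p = 0.00017).

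The primase subunits rose as well. Prim1, which synthesizes the RNA primer, went from 8.88, 7.43 and 8.57 CPM to 23.0, 23.6 and 29.2 CPM. The log2 difference was 1.60 ± 0.18 (edgeR, adjusted p = 1.4e-05). Prim2, its large regulatory partner, went from 14.2, 12.7 and 12.1 CPM to 25.6, 26.9 and 30.2 CPM, a log2 difference of 1.08 ± 0.15 (edgeR, adjusted p = 5.5e-05). The ratios between subunits given further on test whether these changes differed.

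Of polymerase delta, 3 subunits rose. Pold1, which carries the polymerase and the proofreading exonuclease, went from 15.4, 17.1 and 12.98 CPM to 36.0, 33.2 and 34.5 CPM, a log2 difference of 1.18 ± 0.16 (edgeR, adjusted p = 6.9e-05). Pold2, the subunit that links Pold1 to the others, rose by 1.295 ± 0.18 on the log2 scale (edgeR, adjusted p = 6.6e-05), from at most 10.8 CPM to at least 23.4 CPM. Pold3, which binds PCNA and also serves polymerase zeta, rose by 1.21 ± 0.21 (edgeR, adjusted p = 0.00038), from at most 12.9 CPM to at least 23.9 CPM.

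Pold4, the smallest subunit of polymerase delta, went the other way. Its levels in Pole4-/- cells were 14.5, 11.52 and 11.51 CPM with Trp53+/+, 9.26, 9.21 and 9.69 CPM with Trp53+/-, and 3.90, 5.55 and 4.04 CPM with Trp53-/-. The 3 genotypes again did not overlap, in falling order. The log2 difference between Trp53-/- and Trp53+/+ was -1.48 ± 0.20 (edgeR, adjusted p = 5.0e-05). On the annotation used, Pold4 shares 286 exonic bases with AC109138.7, a gene on the same strand that is not in the count table, so reads of either could be counted as Pold4. The other 7 genes share no exonic base with another annotated gene.

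**Figure D2:**
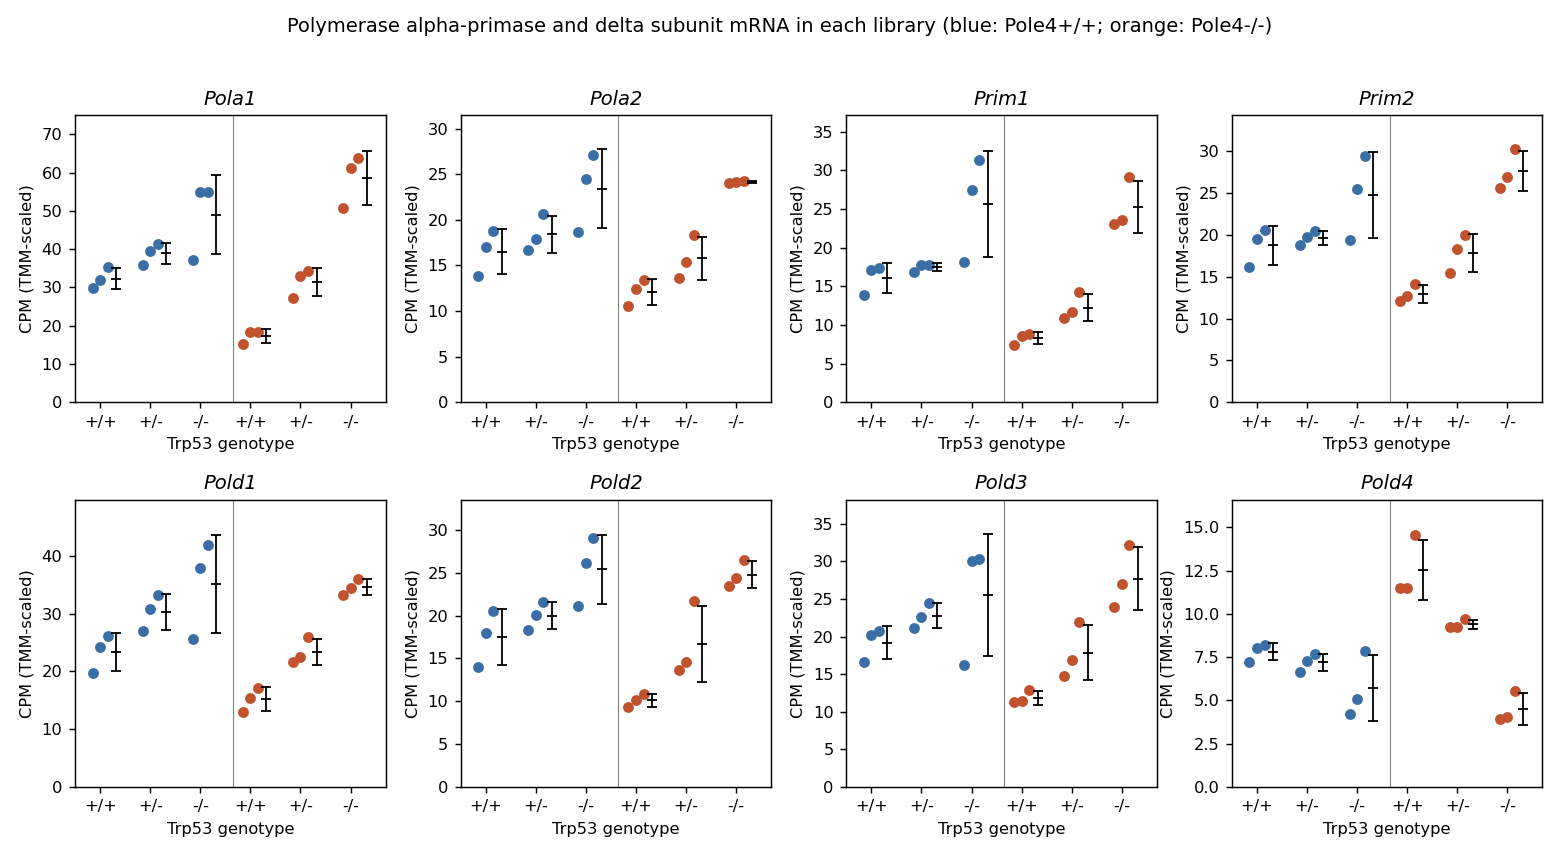
TMM-scaled CPM of the 8 subunit genes in each of the 18 libraries by Trp53 genotype (horizontal axis; blue points Pole4+/+, orange points Pole4-/-), with points ordered by level within a group and bars giving the mean ± SD. In Pole4-/- cells 7 genes rise from Trp53+/+ over Trp53+/- to Trp53-/-, while Pold4 falls from between 11.51 and 14.5 CPM to between 3.90 and 5.55 CPM.

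The steps within the Pole4-/- series differed in how many genes passed. All 8 genes lay in order without overlap over the 3 Trp53 genotypes, which held for 16.7% of all tested genes. Between Trp53+/- and Trp53+/+, 5.12% of all tested genes were called, and of the 8, Pola1 (log2 difference 0.85 ± 0.15; edgeR, adjusted p = 0.010), Pold2 (0.72 ± 0.18; adjusted p = 0.035) and Pold1 (0.62 ± 0.16; adjusted p = 0.043) were higher. The other 5 did not pass, with Prim1 at 0.55 ± 0.18 and Pold4 at -0.42 ± 0.19. Without Pole4-/- Trp53+/- replicate 2, or Pole4-/- Trp53+/+ replicate 2 or 3, 0 of the 8 passed in edgeR (0.105% to 0.254% of all tested genes), and 1 did without Pole4-/- Trp53+/+ replicate 1 (241 of 16019 tested genes). Between Trp53-/- and Trp53+/-, 12.5% of all tested genes were called, and all 8 of these passed. Prim1 rose most, by 1.049 ± 0.17 (edgeR, adjusted p = 0.0017), and Pold4 fell by 1.06 ± 0.19 on the log2 scale (edgeR, adjusted p = 0.0033). Pold3 was nearest to the threshold, at 0.64 ± 0.20 (edgeR, adjusted p = 0.0496). Leaving out Pole4-/- Trp53+/- replicate 1 or 3 left 4 or 3 calls, and leaving out Pole4-/- Trp53-/- replicate 1, 2 or 3 left 5, 5 or 3, while 4.03% to 9.16% of all tested genes were called. The ribosomal RNA share did not overlap between these groups, at 24.7% to 30.04% in Trp53-/- and 3.75% to 15.5% in Trp53+/- libraries. With library totals as the scale 2 of the 8 passed (7.97% of all tested genes), and 7 did with ribosomal RNA genes left out (13.4%). The part of ribosomal RNA in the result was not tested further.

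In Pole4+/+ cells the differences with Trp53 genotype were smaller. Pola1 stood at 35.3, 31.9 and 29.8 CPM with Trp53+/+, at 41.3, 35.9 and 39.6 CPM with Trp53+/-, and at 37.1, 54.98 and 54.9 CPM with Trp53-/-. The low Trp53-/- value is that of the library with both Xist and Y-linked transcripts. Between Trp53-/- and Trp53+/+, 4.6% of all tested genes were called, and 3 of the 8: Prim1 (log2 difference 0.66 ± 0.17; edgeR, adjusted p = 0.036), Pola1 (0.60 ± 0.15; adjusted p = 0.028) and Pold1 (0.58 ± 0.16; adjusted p = 0.048). Prim1 stood at 17.1, 17.3 and 13.8 CPM with Trp53+/+ and at 18.1, 27.5 and 31.4 CPM with Trp53-/-. Pold1 stood at 24.3, 26.2 and 19.7 CPM with Trp53+/+ and at 25.7, 37.9 and 41.96 CPM with Trp53-/-, so that the library that stood apart fell within the Trp53+/+ range. Pola1, Prim1 and Pold2 did not overlap between the groups, as was true of 16.5% of all tested genes.

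Pold4 in Pole4+/+ cells showed the same inverse order with less distance. It stood at 8.19, 8.01 and 7.24 CPM with Trp53+/+, at 7.66, 7.26 and 6.65 CPM with Trp53+/-, and at 7.84, 5.08 and 4.20 CPM with Trp53-/-. The 3 groups overlapped, and the log2 difference between Trp53-/- and Trp53+/+ was -0.43 ± 0.19 (edgeR, adjusted p = 0.23). Without the library that stood apart, all 8 genes passed, and the share of all tested genes called was 16.9%. The log2 differences of the 7 others ran from 0.52 for Prim2 to 0.84 for Prim1, and that of Pold4 was -0.77 (edgeR, adjusted p = 0.0063). Without any 1 of the other 5 libraries of this comparison, 0 passed in edgeR, with 2.01% to 4.02% of all tested genes called.

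No gene passed in the remaining Pole4+/+ comparisons. Between Trp53+/- and Trp53+/+, 0.904% of all tested genes were called in edgeR, and 1 of the 8, Pold1, had an unadjusted p under 0.05, near the share of all tested genes, 10.2%. DESeq2 called 0 (2.90% of all genes) and limma voom, here with sample quality weights, which can give a library less weight, 1 (7.13%). By their transcripts all 3 Trp53+/- libraries were male and all 3 Trp53+/+ libraries female, so sex and genotype cannot be told apart there, nor in the next comparison, since the 3 Trp53-/- libraries were called female too, replicate 1 with the Y-linked transcripts given above. Between Trp53-/- and Trp53+/-, 0.579% of all tested genes were called in edgeR, and 4 of the 8 had an unadjusted p under 0.05, against 9.31% of all tested genes. DESeq2 called 0 (1.47% of all genes) and limma voom 4 (7.29%), and edgeR called 4 without the library that stood apart (9.41%). No gene of the 8 lay in order without overlap over the 3 Trp53 genotypes, against 1.29% of all tested genes.

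Loss of Pole4 with intact Trp53 lowered 4 of the 8 genes, where 3.98% of all tested genes were called. Prim1 fell by 0.95 ± 0.18 on the log2 scale (edgeR, adjusted p = 0.020), from 17.1, 17.3 and 13.8 CPM in Pole4+/+ to 8.88, 7.43 and 8.57 CPM in Pole4-/-. Pola1 fell by 0.89 ± 0.15 (edgeR, adjusted p = 0.016). Pold2 fell by 0.80 ± 0.18 (edgeR, adjusted p = 0.028) and Pold1 by 0.62 ± 0.16 (edgeR, adjusted p = 0.046).

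The other 4 genes came close without passing. Pold3 gave a log2 difference of -0.69 ± 0.21 (edgeR, adjusted p = 0.070), Prim2 -0.52 ± 0.15 (adjusted p = 0.054) and Pola2 -0.45 ± 0.16 (adjusted p = 0.094). Pold4 was again of the opposite sign, 0.69 ± 0.19 (edgeR, adjusted p = 0.054), with 8.19, 8.01 and 7.24 CPM in Pole4+/+ against 14.5, 11.52 and 11.51 CPM in Pole4-/-. None of the 8 genes overlapped between these groups, as was true of 41.1% of all tested genes. With sex as a term in the edgeR model 0 of the 8 passed, and only 0.0509% of all tested genes did. The Pole4+/+ Trp53+/+ libraries were all female and 2 of the Pole4-/- Trp53+/+ libraries male. Without Pole4-/- Trp53+/+ replicate 2 or 3 or Pole4+/+ Trp53+/+ replicate 1 or 2, 0 passed (0.0493% to 0.161% of all tested genes), and 2 did without Pole4-/- Trp53+/+ replicate 1 (0.874%).

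With 1 or no Trp53 allele the loss of Pole4 left no call. In Trp53+/- cells, 0.00637% of all tested genes were called in edgeR, and 3 of the 8 (Pola1, Prim1 and Pold1, all lower) had an unadjusted p under 0.05, against 5.51% of all tested genes. DESeq2 called 0 (0.317% of all genes) and limma voom 2 (1.58%). The 7 genes other than Pold4 gave log2 differences of -0.52 to -0.14, and Pold4 gave 0.38. Pole4 itself, at -0.97, did not pass either (edgeR, adjusted p = 0.26), so the lack of calls does not show a lack of change. By their transcripts all 3 Pole4+/+ Trp53+/- libraries were male, and replicates 2 and 3 of Pole4-/- Trp53+/- were female. In Trp53-/- cells the share called in edgeR was again 0.00637% (0.00627% without the library that stood apart). There 0 of the 8 passed in edgeR, in DESeq2 (0.185% of all genes) or in limma voom (0.00637%). At an unadjusted p under 0.05 it was 0 of the 8, against 10.4% of all tested genes. Pola1 gave a log2 difference of 0.26 (95% interval -0.04 to 0.57) and Pold4 one of -0.36 (-0.78 to 0.05), intervals that still allow sizeable changes. Without the library that stood apart these were 0.10 and -0.05. The ribosomal RNA share did not overlap between the Trp53-/- groups, at 24.7% to 30.04% in Pole4-/- and 1.82% to 13.1% in Pole4+/+ libraries. Its part was not tested.

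The effects of Trp53 loss in Pole4-/- and in Pole4+/+ cells were then tested against each other. The test called 0.331% of all tested genes and, of the 8, Pola1 alone, with a log2 difference of 1.16 ± 0.21 between the effects (edgeR, adjusted p = 0.036). Without the library that stood apart it was 1.00 (edgeR, adjusted p = 0.022), with 1.07% of all tested genes called. Prim1 (0.94 ± 0.25) and Pold4 (-1.05 ± 0.27) each had an adjusted p of 0.058 and did not pass. All 8 had an unadjusted p under 0.05, against 28.3% of all tested genes. Pola1 no longer passed without any 1 of the 3 Pole4-/- Trp53-/- or the 3 Pole4-/- Trp53+/+ libraries, or without Pole4+/+ Trp53+/+ replicate 1 or 2, refits that called at most 0.0687% of all tested genes. Its difference stayed between 0.995 and 1.256 with each library left out in turn. Without Pole4+/+ Trp53-/- replicate 2 or 3, 6 or 8 of the genes passed, but so did 12.3% or 20.1% of all tested genes. Without Pole4+/+ Trp53+/+ replicate 3, 2 passed and 2.52% of all tested genes did.

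**Figure D3:**
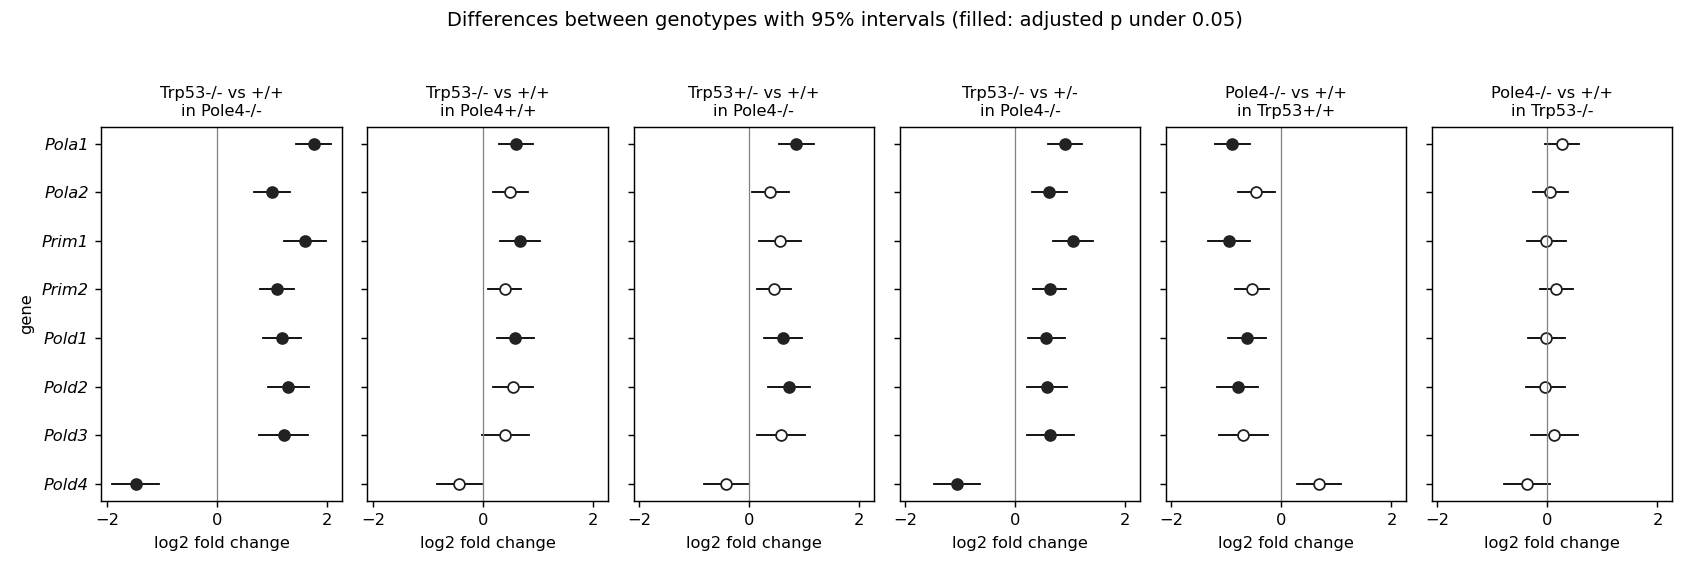
Log2 fold changes of the 8 genes (points) with 95% intervals (lines) in 6 comparisons of genotypes, filled where the adjusted p was under 0.05. Pold4 lies on the other side of 0 from the other genes in the first 5 panels, and in the last panel (Pole4 loss in Trp53-/- cells) no interval excludes 0.

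Ratios between 6 pairs of subunits were tested over the 12 Trp53+/+ and Trp53-/- libraries, by exact permutation of the Trp53 labels within each Pole4 background (two-sided, 400 arrangements, smallest p 0.005, adjusted over the 6). The ratio of Pold1 to Pold4 changed most. In Pole4-/- cells it was 1.22 ± 0.23 (SD, n = 3) with Trp53+/+, 2.49 ± 0.28 with Trp53+/- and 7.91 ± 1.71 with Trp53-/-. In Pole4+/+ cells it was 2.98 ± 0.28, 4.25 ± 0.66 and 6.91 ± 3.39 in the same order. The mean log2 change with Trp53 loss was 1.86, the mean of 2.66 in Pole4-/- and 1.06 in Pole4+/+ cells, and its exact permutation p was the smallest possible, 0.005 (adjusted p = 0.015). When the library that stood apart was left out, the Pole4+/+ Trp53-/- ratio was 7.46 and 9.98 in the remaining libraries, the change in Pole4+/+ cells 1.52 and the mean change 2.09 (exact permutation test, adjusted p = 0.015).

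The ratio of Prim1 to Prim2 also rose with Trp53 loss. It went from 0.64 ± 0.06 to 0.91 ± 0.05 in Pole4-/- cells and from 0.86 ± 0.02 to 1.03 ± 0.08 in Pole4+/+ cells, without overlap in either background. The mean log2 change was 0.38 (exact permutation test, p = 0.005, adjusted p = 0.015), and 0.41 without the library that stood apart. Pola1 to Pola2 gave a mean log2 change of 0.42, the mean of 0.75 in Pole4-/- and 0.09 in Pole4+/+ cells (exact permutation test, p = 0.03, adjusted p = 0.06). Pola1 to Pold1 gave 0.29, the mean of 0.56 and 0.01 in the same order (exact permutation test, p = 0.05, adjusted p = 0.075). Neither passed. Pold1 to Pold2 and Pold1 to Pold3 gave -0.03 and 0.10 (exact permutation tests, adjusted p = 0.78 and 0.43). With the library that stood apart left out these 4 ratios gave 0.44, 0.27, 0.008 and 0.05, and none passed (exact permutation tests, adjusted p = 0.06, 0.09, 0.93 and 0.67).

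**Figure D4:**
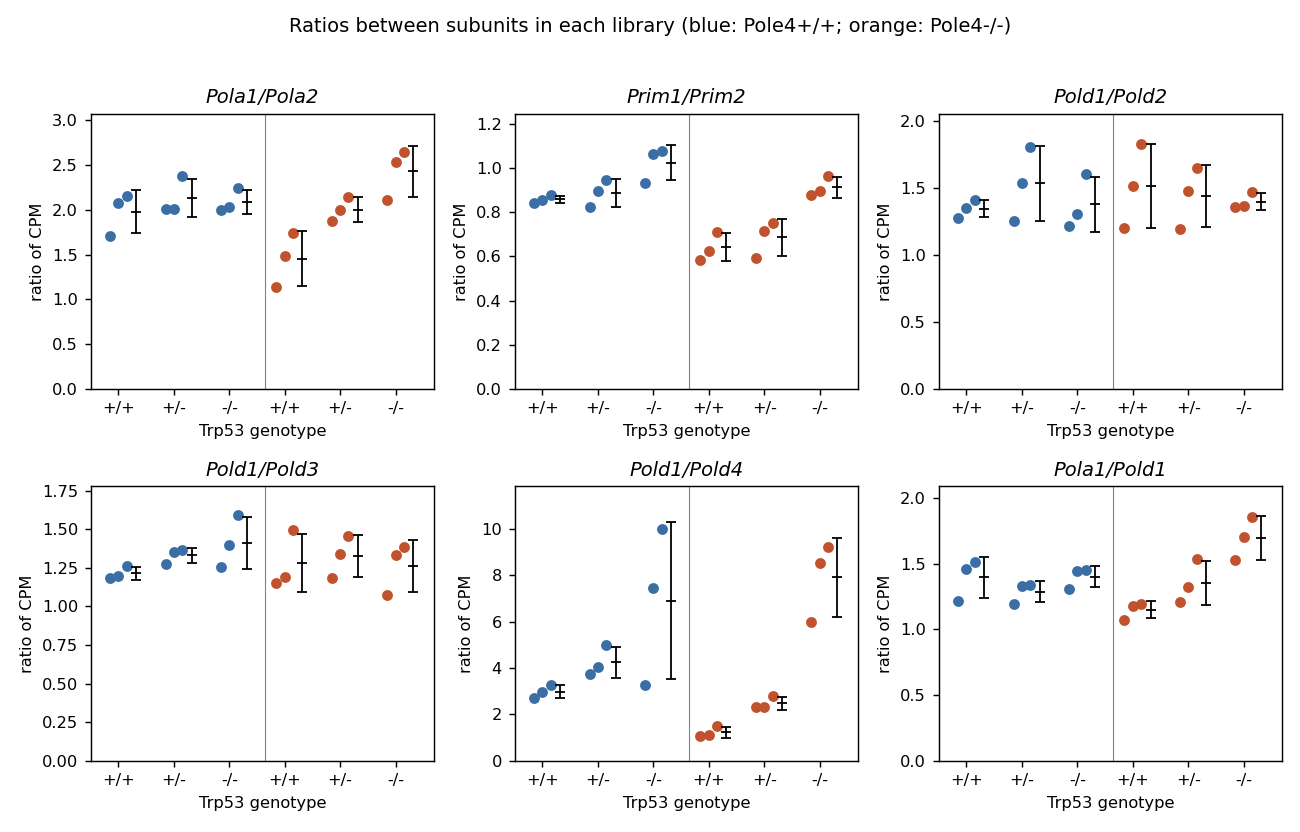
Ratios of CPM between 6 pairs of subunits in each library by Trp53 genotype (blue Pole4+/+, orange Pole4-/-), ordered by value within a group, with the mean ± SD as bars. The Pold1 to Pold4 ratio averages 1.22 with Trp53+/+ and 7.91 with Trp53-/- in Pole4-/- cells, while the mean log2 change with Trp53 loss was -0.03 for Pold1 to Pold2 and 0.10 for Pold1 to Pold3.

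Levels of different genes were compared as CPM per kilobase of all annotated exons of a gene joined. Over all 18 libraries Pold2 was highest, at 10.1 ± 3.11 (SD), followed by Pold4 at 6.75 ± 2.44 and Pold1 at 5.56 ± 1.67. Pola2 was lowest, at 2.22 ± 0.58, and the remaining 4 lay between 3.41 and 4.52. The place of Pold4 depended on genotype: at 10.8 ± 1.495 it was the highest of all in Pole4-/- Trp53+/+, above Pold2 at 5.33 ± 0.39, and at 3.87 ± 0.78 it was lower than all but Pola2 in Pole4-/- Trp53-/-, where Pold2 reached 13.1 ± 0.84. The order depended on the length used. Per kilobase of the longest transcript Pold2 was still highest, at 11.6, but Prim1 was lowest, at 5.59, below Pola2 at 6.39, and Prim2, at 8.28, stood above Pold1, at 7.72. In Pole4-/- Trp53-/- Pold4 was then the lowest of all, at 4.93 against 8.39 for Pola2. Pold2 (9.996), Pold4 (6.75) and Pold1 (5.57) were again the highest per kilobase of joined exons, and Pola2 (2.21) the lowest, without the library that stood apart.

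The order of the 6 genotypes was nearly the same for the 7 genes other than Pold4. Pole4-/- Trp53+/+ was lowest and separate from the next genotype in each of them, and Pole4-/- Trp53+/- came second but overlapped with Pole4+/+ Trp53+/+ in each. The 2 highest genotypes were the Trp53-/- ones, which overlapped with each other in every gene. With the library that stood apart left out they were still the 2 highest, but no longer overlapped for Pola2 and Pold1, with Pole4+/+ Trp53-/- above. For Pold4 the order was inverted, with Pole4-/- Trp53+/+ highest and separate from Pole4-/- Trp53+/-, which was itself separate from Pole4+/+ Trp53+/+.

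Across the 18 libraries the log2 CPM of the 7 other genes correlated with Pearson's r between 0.90 and 0.96 (21 pairs), and Pold4 correlated with each of them at -0.93 to -0.85. These libraries share genotypes and differ in depth, so the values describe the set and carry no test. Deviations from the genotype means, which leave genotype out, gave 0.46 to 0.92 among the 7 genes and -0.62 to -0.23 with Pold4. Without the library that stood apart the levels gave 0.90 to 0.97 and -0.93 to -0.86 over 17 libraries, but the deviations 0.26 to 0.81 among the 7 genes and -0.21 to 0.14 with Pold4, so that the inverse relation of Pold4 within genotypes rested on that library.

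The genes most like each subunit over the 18 libraries were named by the same measure. Pola1 was nearest to Ncapg (r = 0.991), Bub1b (0.988) and Top2a (0.983), and Pola2 to Rad51ap1 (0.975), Hist2h2aa2 and Cdt1. Prim1 was nearest to Pbk (0.993), Chaf1b and Dlgap5, and Prim2 to Dnmt1 (0.988), Cep55 and Gen1. Pold1 was nearest to Parp1 (0.984), Espl1 and Tedc1, Pold2 to Hist1h4d (0.981), Stmn1 and Hist2h2bb, and Pold3 to Gm9531 (0.983), Hist1h1a and Nsd2. Pold4 was nearest to Lynx1 (0.964), Akr1b10 (0.962) and Mapre3 (0.957), and lay farthest from Dbf4 (-0.957), which encodes the activating subunit of the kinase that fires origins.

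Markers of dividing cells moved with the subunits. The 10 markers, among them Mki67, Top2a and Ccnb1, summed in Pole4-/- cells to 637 to 662 CPM with Trp53+/+, 893 to 1213 CPM with Trp53+/- and 1896 to 2364 CPM with Trp53-/-. In Pole4+/+ cells the sums were 942 to 1274, 1230 to 1361 and 1201 to 2162 CPM, the lowest Trp53-/- value being that of the library that stood apart. All 10 rose with Trp53 loss in Pole4-/- cells, where 42.6% of all tested genes were called, with a median log2 difference of 1.72, against a median of 1.20 for the 8 subunit genes and of -0.02 for all tested genes. With Pole4 loss in Trp53+/+ cells, where 3.98% of all tested genes were called, 9 of 10 fell, and 1 did without Pole4-/- Trp53+/+ replicate 1. Without Pole4-/- Trp53+/+ replicate 2 or 3, or Pole4+/+ Trp53+/+ replicate 1 or 2, the calls for Pole4 loss in Trp53+/+ cells became 0 in edgeR for these markers and for each of the replication lists below, and 0.0493% to 0.161% of all tested genes were called. A list of 5 genes for arrest and the p53 response held Cdkn2a, Cdkn2b and the p53 targets Cdkn1a, Ccng1 and Mdm2. Mdm2 encodes a negative regulator of p53. The list summed in Pole4-/- cells to 1300 to 1460 CPM with Trp53+/+ and to 173 to 225 CPM with Trp53-/-. Of its 5 genes 4 fell, beside the same 42.6% of all genes. The part of cell division in the subunit differences was not tested.

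Markers of other cell types also moved between Pole4-/- Trp53-/- and Trp53+/+, where 42.6% of all tested genes were called. Of the 5 epithelial markers 2 could be tested, and both Krt8 (log2 difference 4.59) and Krt18 (2.04) were higher, with summed levels of 4.19 to 20.02 against 2.06 to 2.67 CPM and Epcam at no more than 0.243 CPM in any library. The neuronal list summed to 122.5 to 144.5 against 76.8 to 96.1 CPM, with Tubb3 and Stmn2 higher and Snap25 at a median of 0. The muscle list summed to 26.7 to 34.1 against 55 to 70.9 CPM, with Des lower, and the endothelial list to 3.77 to 6.17 against 2.73 to 5.09 CPM with none of 3 tested genes called. Of the 8 fibroblast markers 1 was higher (Pdgfra) and 4 were lower (Col1a1, Col1a2, Col3a1 and Pdgfrb). The other tested neuronal marker, Map2, gave -0.17 here and -0.73 between Trp53+/- and Trp53+/+ in Pole4-/- cells, and passed in neither. In Pole4+/+ cells the neuronal and muscle lists also differed between Trp53-/- and Trp53+/+ without overlap. The neuronal list summed to 99.8 to 136.6 against 66.1 to 85.9 CPM, with none of 3 tested genes called in edgeR (2 at an unadjusted p under 0.05). The muscle list summed to 25.8 to 27.2 against 42.5 to 71.6 CPM, with Des lower. Without the library that stood apart 1 fibroblast, 1 epithelial and 1 neuronal marker were called higher and 1 muscle marker lower, beside 16.9% of all tested genes. For Pole4 loss in Trp53+/+ cells the fibroblast list summed to 16320 to 20340 against 11760 to 15420 CPM. The epithelial list there summed to 2.06 to 2.67 against 2.84 to 6.76 CPM, and the other lists overlapped. Between Trp53-/- and Trp53+/- in Pole4-/- cells the fibroblast list summed to 9858 to 12290 against 15020 to 18530 CPM. The muscle list there summed to 26.7 to 34.1 against 47.3 to 81.1 CPM, and the other lists overlapped. The part of these markers in the subunit differences was not tested.

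**Figure D5:**
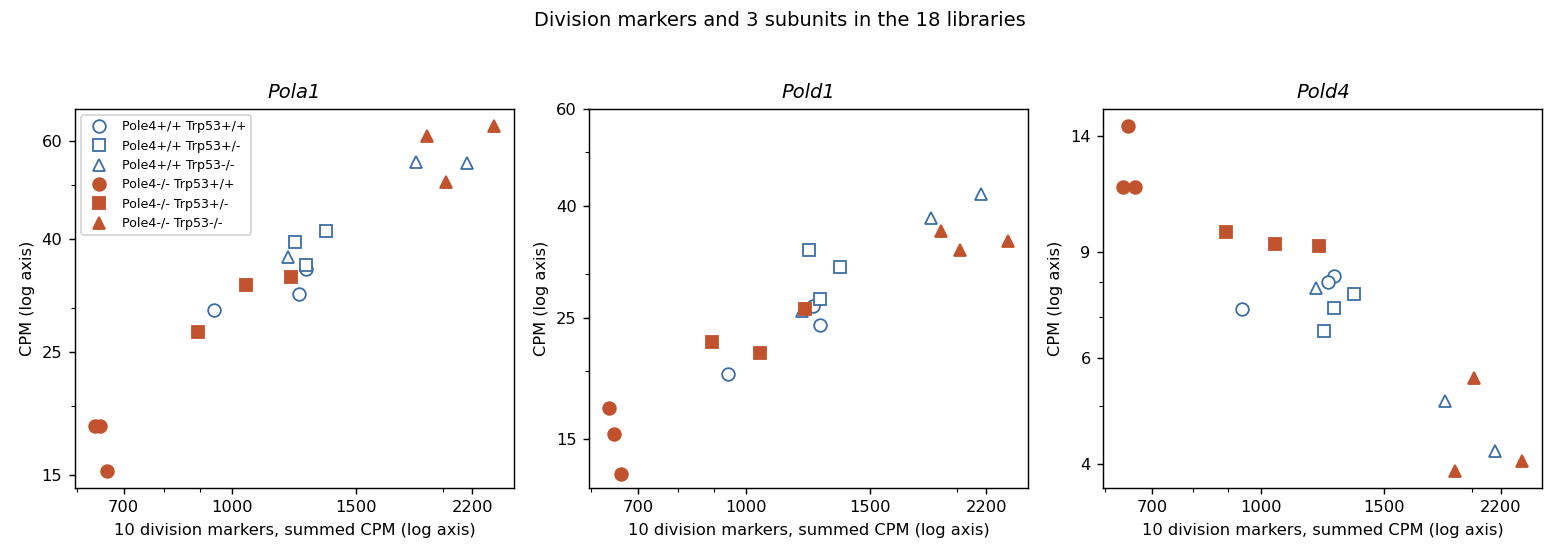
CPM of Pola1, Pold1 and Pold4 (vertical, log axis) against the summed CPM of 10 division markers (horizontal, log axis) in the 18 libraries, by genotype (blue open symbols Pole4+/+, orange filled Pole4-/-; circles Trp53+/+, squares Trp53+/-, triangles Trp53-/-). The Pole4-/- Trp53+/+ libraries, at 637 to 662 CPM of markers, have the lowest Pola1 and the highest Pold4.

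The counts of called genes in the following lists stand beside 42.6% of all tested genes for Trp53 loss in Pole4-/- cells, 4.6% in Pole4+/+ cells and 3.98% for Pole4 loss in Trp53+/+ cells. In Pole4+/+ cells the share was 16.9% without the library that stood apart and 19.0% at an unadjusted p under 0.05. For Pole4 loss without Pole4-/- Trp53+/+ replicate 1 it was 0.874%. Of the 10 genes of the sliding clamp and its loaders, all 10 rose with Trp53 loss in Pole4-/- cells (median log2 difference 1.42), 3 rose in Pole4+/+ cells (9 without the library that stood apart, 1 without Pole4+/+ Trp53-/- replicate 2 or Pole4+/+ Trp53+/+ replicate 1 or 3), and 5 fell with Pole4 loss in Trp53+/+ cells (3 without Pole4-/- Trp53+/+ replicate 1). Pcna, the clamp that holds polymerase delta, rose by 1.43 ± 0.22 in Pole4-/- cells (edgeR, adjusted p = 0.00014), Rfc1, the large subunit of its main loader, by 0.85 ± 0.08, and Rfc5, a small loader subunit, by 1.65. Of 9 genes for single-strand binding and fork coupling, all 9 rose in Pole4-/- cells and 1 in Pole4+/+ cells (7 without that library, 2 without Pole4+/+ Trp53+/+ replicate 1), and 5 fell with Pole4 loss (1 without Pole4-/- Trp53+/+ replicate 1). Timeless, which couples the helicase to the polymerases, rose by 1.52 in Pole4-/- cells. Mcm10, which helps to start the fork, gave 1.97 there and -1.19 with Pole4 loss in Trp53+/+ cells, the largest differences of this list.

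Of 7 genes that mature Okazaki fragments, 5 rose with Trp53 loss in Pole4-/- cells: Lig1 (log2 difference 1.57), the ligase that seals fragments, Fen1 (1.52), the flap nuclease, Dna2, Rnaseh2a and Rnaseh2b. Rnaseh1 (0.18) and Rnaseh2c (0.28) did not pass. None rose in Pole4+/+ cells (edgeR; 2 had an unadjusted p under 0.05), and 4 did without the library that stood apart. Of the 4 polymerase epsilon subunits, Pole (1.77), Pole2 (1.79) and Pole3 (0.66) rose in Pole4-/- cells, and Pole4 itself gave 0.14. In Pole4+/+ cells 0 of the 4 were called in edgeR, 3 had an unadjusted p under 0.05 (Pole 0.63, Pole2 0.53 and Pole3 0.37), and 3 were called without the library that stood apart. With Pole4 loss in Trp53+/+ cells Pole, Pole2 and Pole4 fell and Pole3 (-0.14) did not pass. Without Pole4-/- Trp53+/+ replicate 1 the count was 1.

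Of the 3 genes of the CST complex, which brings polymerase alpha-primase to telomeres, Ten1 (0.72) rose in Pole4-/- cells, while Ctc1 (-0.21) and Stn1 (-0.04) did not pass. Of 4 polymerase delta interacting proteins, Wrnip1 (0.50) rose and Poldip2 (-0.22) fell. Of the polymerase zeta genes and Rev1, Rev1 (-0.34) alone was called among 3. With each library left out in turn this last count ran from 0 to 1. Those of the CST complex and of the interacting proteins ran from 1 to 2. These refits called 31.5% to 37.3% of all tested genes. Among 10 tested genes for other DNA polymerases, Polq (1.79) and Polh (1.09) rose and Polk fell by 1.57 on the log2 scale. Polk also fell by 1.295 in Pole4+/+ cells, the only gene of that list called there with all libraries in edgeR. In that comparison 4 genes of the list had an unadjusted p under 0.05. Without the library that stood apart 1 was called higher and 1 lower. Of 8 E2F genes, 6 rose in Pole4-/- cells, E2f7 most (2.02), and 0 were called in Pole4+/+ cells (edgeR; 3 had an unadjusted p under 0.05; 4 without the library that stood apart).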

How the data were processed

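Primary MEFs of 6 genotypes, with 3 libraries each, were profiled by RNA-seq. Per the labels, RNA was isolated with TRIzol, whereas the methods name a column kit, and cDNA was made with the Ovation RNA-Seq System V2 and sequenced in pairs. The authors aligned reads with STAR 2.5.2 to GRCm38 (Ensembl genes) and deposited expected counts per gene from RSEM 1.3.0, of which 6.14% are not whole. These were rounded here. Same-numbered libraries deviated together (r over 0.1 in every pair) for Pole4 loss in Trp53+/- cells (0.261, 0.497 and 0.292) and between Trp53-/- and Trp53+/- in Pole4+/+ cells (0.25, 0.586 and 0.144), a pairing read from the data and not from the labels. In the other comparisons at least 1 pair was at or under 0.1 (all pairs -0.259 to 0.586). The labels also name DESeq2 1.10.1, whose results were not used.

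Tests used edgeR 4.0.16 in R 4.3.3: filterByExpr, TMM factors, 1 mean per genotype over 18 libraries, robust quasi-likelihood F-tests and Benjamini-Hochberg adjustment over 15710 genes, called under 0.05. SEs were derived from the log2 difference and its F statistic. The code was tested on simulated data. Log2 CPM used a prior count of 2. Names, lengths and overlaps came from GENCODE M21 (51719 identifiers matched), a later release than the one counted. DESeq2 1.42.0 and limma 3.58.1 (voom with sample quality weights), other scalings, filters, a sex term (sex called from Y-linked transcripts), a replicate block and libraries left out in turn were alternatives. Library totals of 9535971 to 35319918 counts limit precision for genes with few reads.

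The genes, lists, ratios and naming rule (all 8 genes; up to 4 per list with the lowest p or moving against it; the 3 genes most like each subunit; Trp53, Cdkn1a and Pole4) were chosen with earlier results of these data known. Motifs, and genes named outside that rule, such as Pcna and uncalled members of short lists, were added after the values were seen. So were levels per length, genotype orders and correlations without Pole4+/+ Trp53-/- replicate 1, and list counts without each library in turn.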

Additional observations from a re-analysis of the deposited data

Results flagged for a closer look

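The change of Pola1 with Trp53 loss differed between the Pole4 backgrounds by 1.16 on the log2 scale in the test of the difference itself (edgeR, adjusted p = 0.036; 95% interval 0.71 to 1.60). The change was 1.75 in Pole4-/- cells, where all 3 Trp53-/- libraries lay above all 3 Trp53+/+ libraries, and 0.60 in Pole4+/+ cells, where they did as well. The difference passed in 11 of 22 alternatives, with adjusted p between 0.0002 and 0.18. With sex as a term the difference was 1.12 (edgeR, adjusted p = 0.078), in a fit that called 0 of the 15710 tested genes. The ribosomal RNA share was 24.7% to 30.04% in Pole4-/- Trp53-/- and 1.82% to 13.1% in Pole4+/+ Trp53-/- libraries, and its part was not tested. No group had enough libraries for a test of single outlying values.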

How the results depend on the processing

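All 8 genes passed between Trp53-/- and Trp53+/+ in Pole4-/- cells in each of 16 alternatives. The other counts of genes passing moved. Between Trp53-/- and Trp53+/+ in Pole4+/+ cells 3 passed (4.6% of all tested genes), against 5 with DESeq2 (8.65%), 8 with quality-weighted voom (18.9%), and 0 with library totals alone (1.22%) or with only the compared libraries fitted (0.616%). Between Trp53+/- and Trp53+/+ in Pole4-/- cells 3 passed (5.12%), against 5 with DESeq2 (12.3%) or no filter (3.03%), 8 with voom (24.6%), 7 with library totals (13.8%) or only the compared libraries (18.2%), and 1 with a sex term (1.13%). With voom 1 passed for the same step in Pole4+/+ cells (7.13%), 4 between Trp53-/- and Trp53+/- there (7.29%), and 2 for Pole4 loss in Trp53+/- cells (1.58%), where edgeR gave 0 each. Between Trp53-/- and Trp53+/- in Pole4-/- cells library totals left 2 of 8 (7.97%, against 12.5%). For Pole4 loss in Trp53+/+ cells 4 passed (3.98%), against 7 with DESeq2 (12.5%) or library totals (14.3%), 8 with voom (33.5%) or only the compared libraries (24.1%), and 0 with a sex term (0.0509%). For the difference between the effects 1 passed (0.331%), against 5 with DESeq2 (12.8%) or voom (7.59%), 3 with a mean of at least 50 counts (4.23%), 2 with no filter (1.14%), and 0 with library totals, a sex term or only the compared libraries, which called 0 genes of all tested in edgeR. The cause was not tested.

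With each library left out in turn the counts ran from 8 to 8 between Trp53-/- and Trp53+/+ in Pole4-/- cells and from 0 to 8 in Pole4+/+ cells, from 0 to 3 between Trp53+/- and Trp53+/+ in Pole4-/- cells and from 0 to 0 in Pole4+/+ cells, and from 3 to 8 and from 0 to 4 between Trp53-/- and Trp53+/-. They ran from 0 to 5 for Pole4 loss in Trp53+/+ cells, from 0 to 0 with Trp53+/- or Trp53-/-, and from 0 to 8 for the difference between the effects. The Pold1 to Pold2 log2 ratio ran from -0.112 to 0.04, turning positive without Pole4-/- Trp53+/+ replicate 2 (0.04) or Pole4+/+ Trp53-/- replicate 1 (0.008). Ratios past the threshold stayed at 2. The Pola1 difference with Pole4 loss in Trp53-/- cells turned to -0.14 with library totals. The highest over the lowest level per length, 4.54, was 2.07 with the longest transcript.

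With a replicate block 2 genes passed in the difference between the effects (3.49% of all tested genes), 5 for Pole4 loss in Trp53+/+ cells (896 of 15710), and 2 between Trp53-/- and Trp53+/+ in Pole4+/+ cells (5.06%). In the comparisons whose replicate numbers paired the libraries the block gave 0 calls, as without it. Where they did not, the block is only a different fit. Depth limits Pold4 most, with as few as 52 counts in a library.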
